A study of Homo sapiens with 12 samples.

Results

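Interferon-stimulated genes are the genes that cells switch on when an interferon binds its receptor. A fixed list of 53 such genes was followed here in 2 human cell lines given an extract of poultry dust. The members were found by symbol in the probe annotation of the array, and 1 probe was used per gene, the one with the highest mean signal over all arrays. Of the 53 members, 52 had a named probe and 50 could be tested, out of 15479 genes and unnamed probes tested in all. USP18, which removes ISG15 from proteins, and CMPK2, a mitochondrial nucleotide kinase, were not above background on both arrays of any group and were not tested. STAT2, a signalling factor, had no named probe and was not analysed here.

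BEAS-2B is an immortalized line of bronchial epithelial cells and THP-1 is a monocytic leukemia line. Both were starved of serum overnight and then received the extract for 3 h, the extract for 1 h, or medium alone as the control. BEAS-2B received the extract at 0.25% and THP-1 at 0.1%, so that line and dose cannot be told apart in any difference between the responses. RNA was measured on 12 arrays of 1 bead chip, with 2 arrays in each of the 6 groups. Both are lines that divide without limit and not tissue. The duration of the controls is not in the labels, and nothing in them says whether the 2 arrays of a group came from separate cultures. The p-values therefore rest on differences between arrays of a group that may be only technical.

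Interferons act through paired receptors and the kinases JAK1 and TYK2. Type I and type III interferons act on genes through the interferon-stimulated response element (ISRE), which a complex that includes STAT2 and IRF9 binds, whereas interferon gamma acts mainly through the gamma-activated site (GAS). The products sense viral nucleic acid, block viral replication, tag proteins with ISG15, cut proteins into peptides for display to T cells, or attack the vacuoles of intracellular microbes. Airway epithelial cells and monocytes both respond to interferon, and some of these genes also respond to NF-kB, the factor of inflammatory signalling.

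Promoters were searched for these elements in the 300 bases around annotated transcript starts, from 250 before to 50 after, in RefSeq sequence of build GRCh38.p14. The searched letters were GAAA, 2 bases of any kind and GAAA for the ISRE core, TTC, 3 bases of any kind and GAA for GAS, and GGG, 3 bases of any kind and TTCC for an NF-kB type site, each on both strands. The motifs may overlap each other. Of the 53 members, 43 had a promoter in the table, and 30 of these (69.8%) held the ISRE core, against 4.38% of all 27305 genes in the table. The GAS letters were in 13 members (30.2%, against 9.38% of all genes), and the NF-kB type letters in 7 (16.3%, against 7.83%). The sequences below belong to ISG20, the member that was called higher in both lines at 3 h, to TAP1 and PSMB9, neighbours read in opposite directions whose probes gave different results, and to IFIT1, the member that fell in BEAS-2B. Each runs 5′ to 3′ on its gene's strand, with ISRE core and NF-kB type matches in capitals.
ISG20, chr15:88638766-88639065, plus strand: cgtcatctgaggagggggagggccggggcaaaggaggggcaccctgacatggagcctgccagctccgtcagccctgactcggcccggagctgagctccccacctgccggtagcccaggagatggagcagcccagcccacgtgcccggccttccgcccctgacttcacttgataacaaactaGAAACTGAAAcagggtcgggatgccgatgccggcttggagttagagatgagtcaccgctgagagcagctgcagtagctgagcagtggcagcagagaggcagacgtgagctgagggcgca
TAP1, chr6:32853655-32853954, minus strand: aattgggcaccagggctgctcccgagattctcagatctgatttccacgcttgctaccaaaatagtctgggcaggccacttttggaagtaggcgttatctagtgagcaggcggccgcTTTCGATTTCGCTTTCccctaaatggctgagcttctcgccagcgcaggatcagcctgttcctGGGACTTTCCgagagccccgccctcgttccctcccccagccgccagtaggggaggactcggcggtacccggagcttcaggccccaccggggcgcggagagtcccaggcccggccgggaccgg
PSMB9, chr6:32853942-32854241, plus strand: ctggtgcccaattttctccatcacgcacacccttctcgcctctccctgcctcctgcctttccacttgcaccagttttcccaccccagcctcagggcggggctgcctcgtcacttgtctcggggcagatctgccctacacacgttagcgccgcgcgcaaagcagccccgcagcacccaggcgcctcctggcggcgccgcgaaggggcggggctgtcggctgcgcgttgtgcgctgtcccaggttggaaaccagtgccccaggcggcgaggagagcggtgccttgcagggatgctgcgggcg
IFIT1, chr10:89392373-89392672, plus strand: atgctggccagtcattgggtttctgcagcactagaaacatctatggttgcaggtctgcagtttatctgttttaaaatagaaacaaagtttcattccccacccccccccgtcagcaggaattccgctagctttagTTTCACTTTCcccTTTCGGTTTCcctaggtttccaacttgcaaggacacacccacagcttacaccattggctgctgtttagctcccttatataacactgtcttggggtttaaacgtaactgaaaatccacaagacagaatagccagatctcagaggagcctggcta
The ISG20 window held 1 ISRE core, which began 69 bases before the start. That of TAP1 held overlapping ISRE cores beginning 134 and 128 bases before the start and an NF-kB type match 72 bases before it. TAP1 has a further annotated start, whose window held the GAS letters 189 bases before that start but neither the ISRE core nor the NF-kB type letters. In the PSMB9 window, whose first bases overlap that of TAP1, none of the searched letters was found. However, TAP1 and PSMB9 lie only 487 bases apart. The ISRE cores and the NF-kB type match given for TAP1 lie between the genes, where the PSMB9 window does not reach. The IFIT1 window held ISRE cores 116 and 103 bases before the start. A match of letters is a description and not a bound site.

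Both lines expressed most members, and BEAS-2B expressed more of them. Detection was counted at a detection p under 0.01, called well above background here. Over the 52 members with a probe, 41 were well above background on both arrays of at least 1 group in each line, and 30 were so in all 6 groups. A further 7 reached this only in BEAS-2B, namely IFIT1, IFIT3, IFIT5, GBP1, GBP3, TRIM22 and IFI44L, and 2 only in THP-1, namely RSAD2 and GBP5. In BEAS-2B, 45, 47 and 44 members were well above background on both arrays after 3 h, after 1 h and in control. In THP-1 these numbers were 35, 39 and 41. Over all probes, the THP-1 arrays detected 14977 and 15402 at 3 h, 15810 and 16896 at 1 h, and 16043 and 15864 in control. The BEAS-2B arrays detected 15411 and 15472 at 3 h, 16487 and 17045 at 1 h, and 15718 and 16650 in control. Detection over all probes was thus also lower at 3 h than in control in both lines.

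The identity of the lines and the quality of the arrays were checked first. In the labels, THP-1 has a source name of A459, but each THP-1 array showed 11 of 11 monocyte markers and 0 of 9 epithelial, 0 of 6 A549 and 0 of 6 fibroblast markers. Each BEAS-2B array showed 9 of 9 epithelial, 0 of 6 A549 and 2 of 6 fibroblast markers, and 2 to 3 of 11 monocyte markers. Of 5 lymphocyte markers with a probe, 1 was detected on each THP-1 array and 0 on each BEAS-2B array. The 75th percentile of raw signal was lowest on the THP-1 arrays of 3 h, 126 and 127, against 144 to 181 on the other 10 arrays. In THP-1, and in BEAS-2B at 3 h, most members differed between replicate arrays in a common direction. Replicate 2 was the higher array for 34 of the 50 tested members in THP-1 at 3 h, for 36 at 1 h and for 34 in control, while replicate 1 was the higher for 39 of 50 in BEAS-2B at 3 h. In BEAS-2B at 1 h the members split into 26 and 24, and in control replicate 1 was the higher for 32. Of all features tested, replicate 1 was the higher for 47.9%, 50.8% and 46.3% in THP-1 at 3 h, at 1 h and in control. In BEAS-2B these shares were 45.5%, 52.2% and 50.4%. The median SD of the members between replicates was 0.33 log2 in THP-1 at 3 h, against 0.16 over all features, and 0.20 in BEAS-2B at 3 h, against 0.12.

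**Figure D1:**
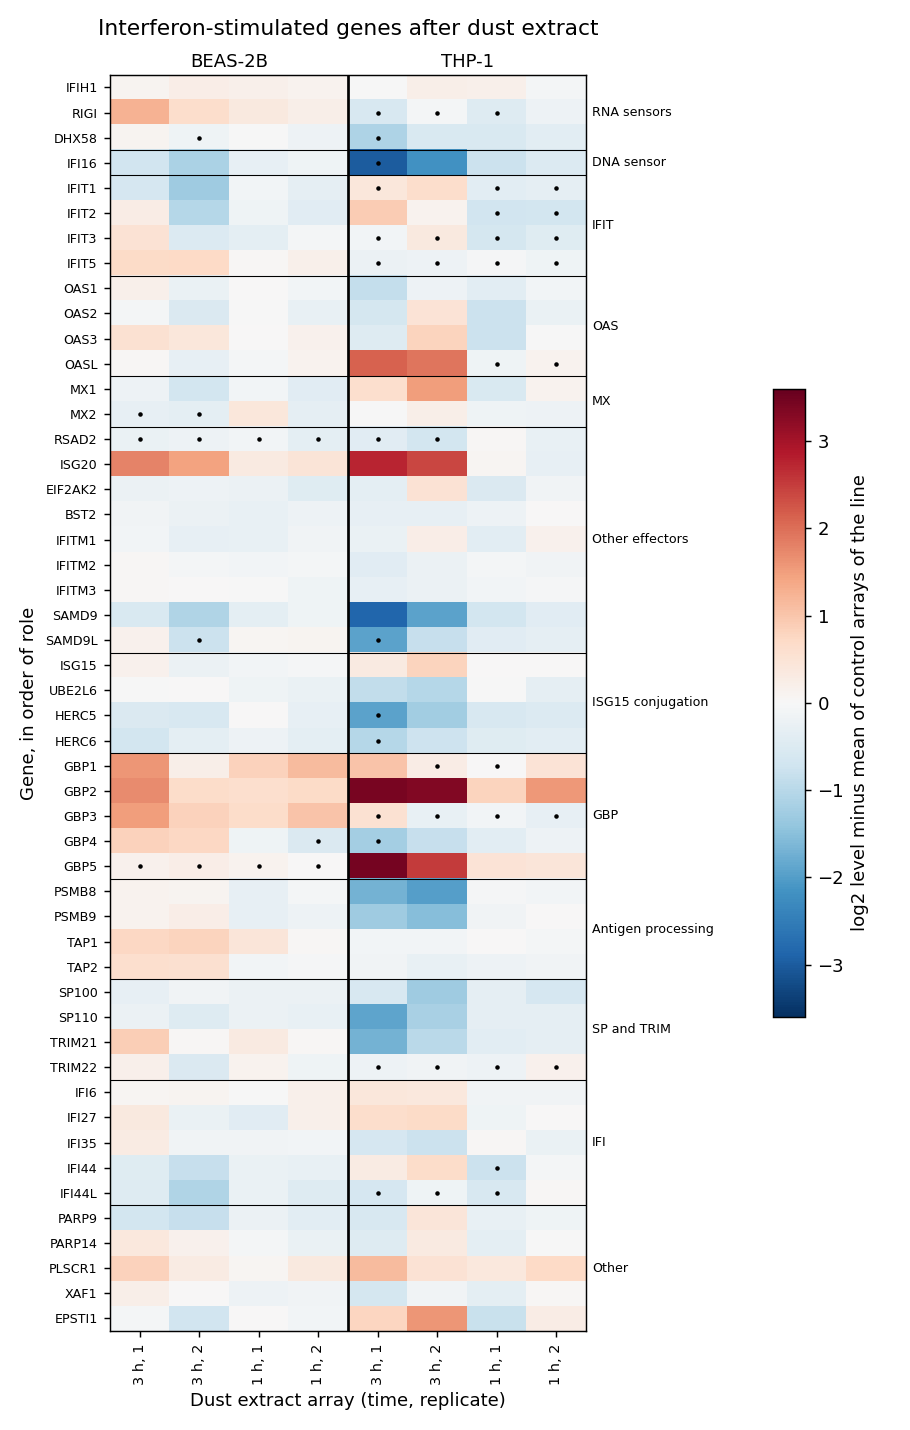
Change of each of the 50 tested interferon-stimulated genes (rows, by role) on each dust array (columns, by line, time and replicate), as the log2 level minus the mean of the control arrays of the same line. Red is higher and blue is lower than control, and a dot marks an array not well above background. GBP2, GBP5, ISG20 and OASL stand out as red and IFI16, SAMD9 and PSMB8 as blue in THP-1 at 3 h, and ISG20 is red in both lines.

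The interferon-stimulated genes moved in both directions in THP-1 cells given the extract for 3 h. Against control, 10 members rose and 15 fell of 50 tested. By limma's test 25 of 50 were thus called, and the background over all features was 45.7%, so the share of members called was near that of all features at this time. By direction the background was 19.1% higher and 26.5% lower. The median member changed by -0.13 log2, against -0.05 over all features. In bulk RNA, fewer cells of a type and less RNA per cell cannot be told apart. Folds and log2 changes are given with the standard error of the log2 change (n = 2 arrays per group throughout). Levels are log2 intensities after background correction and quantile normalization, and they are compared only within a probe.

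The largest rises were those of GBP2, GBP5, ISG20 and OASL. GBP2, a guanylate-binding protein that assembles on the vacuoles of intracellular microbes (probe ILMN_1774077), had levels of 11.88 and 11.79 at 3 h and a mean of 9.62 at 1 h, against 8.06 and 8.85 in control. The 3 h arrays lay above all others of this line, and GBP2 rose 10.4-fold (3.38 ± 0.35, adjusted p = 2.91e-05). GBP5, a family member that promotes inflammasome assembly (probe ILMN_2114568), had levels of 10.04 and 9.12 at 3 h, against 6.50 and 6.69 in control, and rose 7.93-fold (2.99 ± 0.24, adjusted p = 5.36e-06). ISG20, an exonuclease that degrades viral RNA (probe ILMN_1659913), had levels of 9.95 and 9.59 at 3 h, against 7.20 and 7.18 in control, and rose 5.97-fold (2.58 ± 0.18, adjusted p = 2.1e-06). For both genes the groups were parted by more than the gap between replicates. OASL, an OAS-like protein that enhances RNA sensing (probe ILMN_1674811), had levels of 7.31 and 7.12 at 3 h, against 4.93 and 5.47 in control, where neither array was well above background. It rose at least 2.89-fold (2.01 ± 0.21, adjusted p = 2.85e-05), the bound being the 3 h mean against the dimmest detected signal of each control array.

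The other 6 rises were smaller, and each was lost under some alternatives. EPSTI1, an interferon-induced gene first described in breast tissue, rose 2.27-fold (1.18 ± 0.36, adjusted p = 0.0204), and MX1, a dynamin-like GTPase that traps viral nucleocapsids, rose 2.08-fold (1.06 ± 0.35, adjusted p = 0.0307). Levels of MX1 were 9.90 and 10.82 at 3 h, against 8.93 and 9.66 in control, so that the groups did not overlap but the replicates of each lay far apart. The scramblase gene PLSCR1 rose 1.78-fold, IFI27, a small mitochondrial protein, 1.59-fold, the ubiquitin-like modifier ISG15 1.48-fold, and IFI6, an inhibitor of apoptosis, 1.32-fold. All 6 calls ended under median scaling of the arrays. Single THP-1 arrays decided them too. Leaving out replicate 1 of control or replicate 2 of 3 h ended the calls of EPSTI1 and MX1 (adjusted p up to 0.149 and 0.221 over the arrays left out). The call of PLSCR1 needed both control arrays and replicate 1 of 3 h (up to 0.153 when 1 was left out). That of ISG15 needed replicate 2 of both groups (up to 0.217), and that of IFI6 all 4 arrays (up to 0.0972). The call of IFI27 ended without control replicate 2, either 3 h array, or either BEAS-2B control array (up to 0.225).

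The falls in THP-1 at 3 h were led by IFI16, SAMD9 and PSMB8. IFI16, a sensor of DNA in the nucleus and cytosol (probe ILMN_1710937), had levels of 5.61 and 6.42 at 3 h and 7.82 and 8.13 at 1 h, against 8.36 and 8.85 in control. It fell 6.02-fold (-2.59 ± 0.27, adjusted p = 3.37e-05). Replicate 1 of 3 h was not well above background, and with that array at the lowest such signal the fold was 5.49. SAMD9, which restricts poxviruses (probe ILMN_1814305), had levels of 6.27 and 7.23 at 3 h, against 8.98 and 9.30 in control, and fell 5.24-fold (-2.39 ± 0.29, adjusted p = 8.25e-05). Its neighbour and paralog SAMD9L fell 2.59-fold (-1.37 ± 0.34, adjusted p = 0.00756), or 2.56-fold with the dim array of 3 h at the lowest signal. This call ended without 3 h replicate 1 or control replicate 2 (adjusted p up to 0.0652).

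The immunoproteasome genes fell in THP-1 at 3 h, while the genes of the peptide transporter did not pass the test. PSMB8 and PSMB9 are interferon-inducible catalytic subunits that replace those of the standard proteasome, and TAP1 and TAP2 form the transporter that carries peptides into the endoplasmic reticulum for loading on MHC class I. PSMB8 (probe ILMN_2390299) had levels of 9.18 and 8.92 at 3 h, against 10.89 and 10.89 in control, and fell 3.58-fold (-1.84 ± 0.14, adjusted p = 3.7e-06). PSMB9 (probe ILMN_2376108) had levels of 7.22 and 6.95 at 3 h, against 8.62 and 8.37 in control, and fell 2.66-fold (-1.41 ± 0.15, adjusted p = 4.04e-05). Neither group of arrays overlapped its control, and the other kept probes of PSMB8 changed by -1.65 and -1.75 log2 and that of PSMB9 by -0.92. TAP1 had levels of 10.36 and 10.38 at 3 h, against 10.41 and 10.52 in control, a change of -0.09 ± 0.15 log2 (95% interval -0.42 to 0.24, adjusted p = 0.654). TAP2 changed by -0.20 ± 0.13 log2 (95% interval -0.49 to 0.09, adjusted p = 0.234). A dimmer TAP2 probe changed by -0.58 log2 and was well above background on 0 of 2 arrays of 3 h, against 2 of 2 in control, so the TAP2 probes differ in size of change.

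Of 4 genes of ISG15 conjugation tested, ISG15 rose and 3 fell. HERC5, the ligase that attaches ISG15 to new proteins, fell 3.02-fold (-1.60 ± 0.29, adjusted p = 0.00123), or 2.49-fold with the dim array of 3 h at the lowest signal. UBE2L6, the conjugating enzyme, and HERC6, a relative of HERC5, also fell. Of 4 members of the SP and TRIM groups, 3 fell: SP110, a nuclear body protein, 2.88-fold (-1.52 ± 0.21, adjusted p = 0.000172), the antibody receptor and ubiquitin ligase TRIM21 2.52-fold (-1.33 ± 0.28, adjusted p = 0.00295), and SP100, another nuclear body protein. TRIM22 was not well above background in THP-1. GBP4, DHX58, a regulator of RNA sensing, IFI35 and RSAD2, an antiviral radical enzyme also known as viperin, completed the 15 falls. The 7 falls given here without a fold lay between -0.53 and -1.03 log2. Of GBP4, HERC6 and DHX58, 1 of the 2 arrays of 3 h was not well above background, and of RSAD2 neither was.

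None of the 4 IFIT genes, whose products bind foreign RNA, passed the test in THP-1 at 3 h. IFIT1 had levels of 5.82 and 6.06, against 5.42 and 5.41 in control, a change of 0.52 ± 0.20 log2 (adjusted p = 0.0537), and only 3 h replicate 2 was well above background. The change of IFIT2 was 0.52 ± 0.37 log2 (adjusted p = 0.284). Of the synthases that make the activator of RNase L, OAS1 changed by -0.52 ± 0.23 log2 (adjusted p = 0.0864), OAS2 by -0.07 ± 0.37 and OAS3 by 0.16 ± 0.38. The other kept probes of OAS1 changed more, by -1.14 and -1.39 log2, so the value of OAS1 depends on the probe. Replicates of OAS2 and OAS3 were far apart at 3 h, with OAS3 at 6.19 and 7.47, against 6.33 and 7.01 in control. The RNA sensors RIGI and IFIH1 did not pass (adjusted p = 0.306 and 0.663), nor did MX2, EIF2AK2, BST2 or the membrane proteins IFITM1, IFITM2 and IFITM3. IFIT, OAS, GBP and IFITM genes have close paralogs, and cross-signal between their probes was not tested.

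Of 11 monocyte markers in THP-1 at 3 h, SPI1 rose by 1.18 ± 0.15 log2 and CSF1R, ITGAM, LAPTM5 and PTPRC fell, by 1.09 log2 in the case of CSF1R. These 5 of 11 stood against the 45.7% of all features called. The summed raw signal of the 11 was 52977 to 54437 at 3 h, against 58749 to 64409 in control, and the defining markers of epithelial cells, fibroblasts and A549 were below background on every THP-1 array. The part of these values in the results on the members was not tested. Scaling matters in this comparison as well. Under median scaling the median change of all features was -0.30 log2, and the members split into 4 higher and 19 lower, against 10 and 15 as reported. No called member given here with its adjusted p changed direction under any alternative run.

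**Figure D2:**
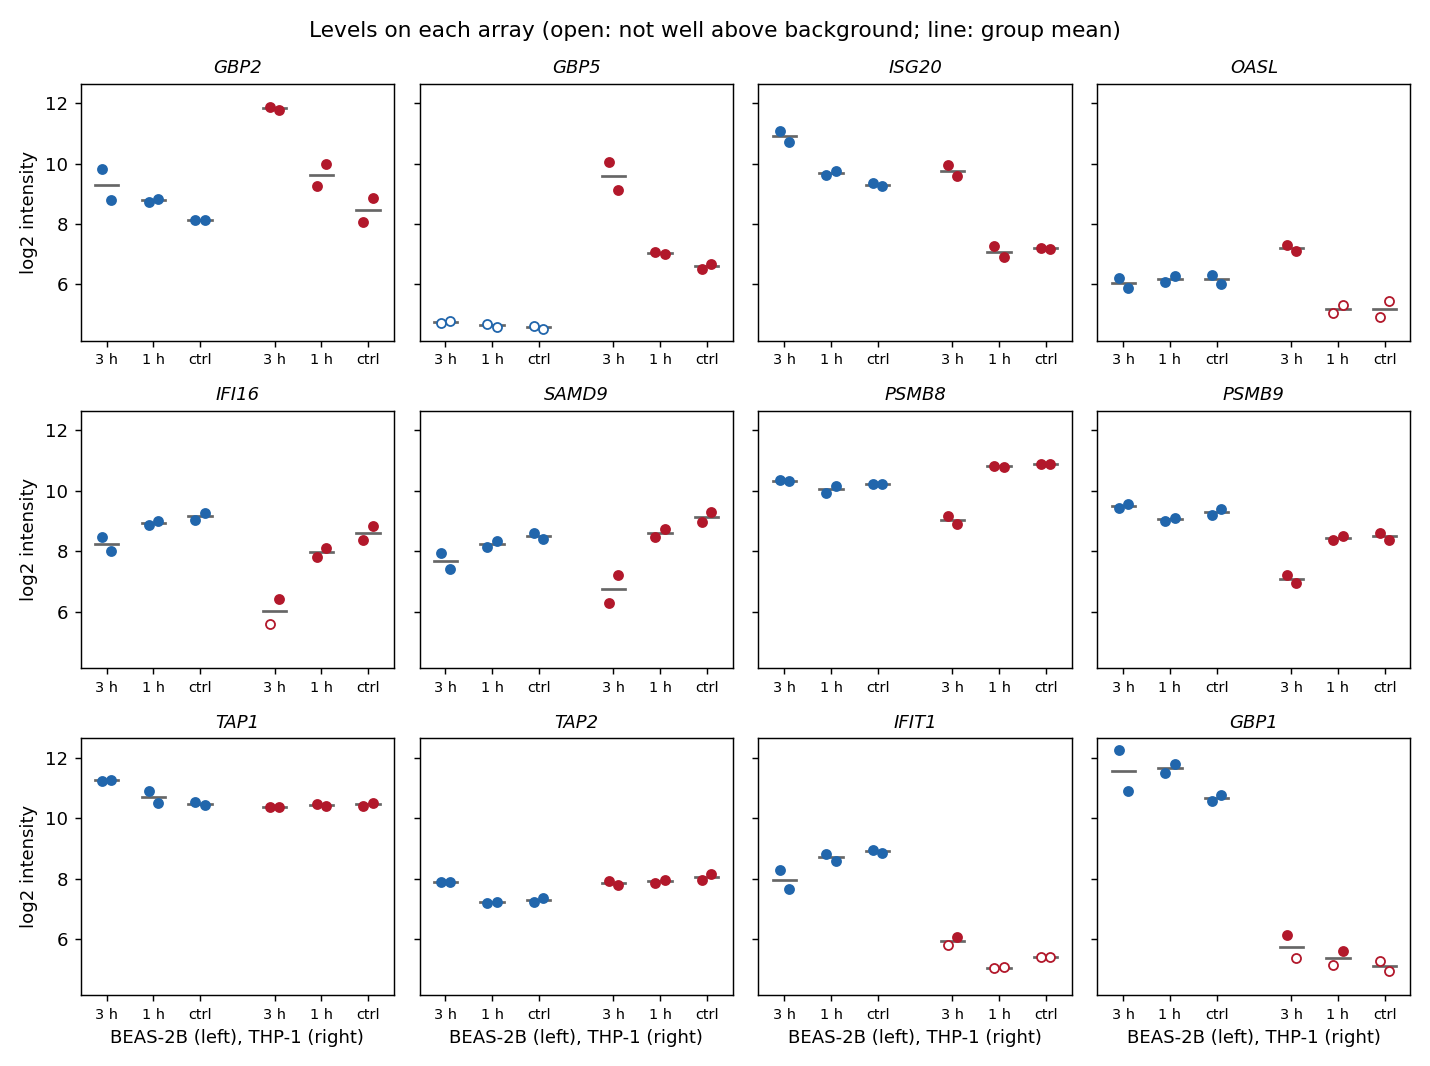
Log2 intensity of 12 interferon-stimulated genes on each of the 12 arrays, with BEAS-2B (blue) left of THP-1 (red) and, within a line, 3 h, 1 h and control from left to right. Points are arrays, open where not well above background, and lines are group means (n = 2). In THP-1, GBP2, GBP5, ISG20 and OASL are highest at 3 h, while TAP1 and TAP2 are raised at 3 h in BEAS-2B and not in THP-1.

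After 1 h of dust extract, no member passed the test in THP-1, against a background of 1.64% of all features called, 1.26% higher and 0.381% lower. An unadjusted p under 0.05 was reached by 4 members in limma's test, namely GBP2, DHX58, SP100 and IFI16. The 1 h arrays of GBP2 lay above both controls, and its change was 1.17 ± 0.35 log2 (limma, adjusted p = 0.176). ISG20 changed by -0.11 ± 0.18 log2 (95% interval -0.52 to 0.29). Of the 50 members, 44 had a negative estimate at 1 h, with a median of -0.18 log2, against -0.03 over all features. The share of all features with a negative estimate was not counted, so the 44 cannot be set against it.

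Between 1 h and 3 h in THP-1, 12 members rose and 12 fell. Together these were 48.0% of the members, against 39.5% of all features called, 16.8% higher and 22.7% lower. ISG20 rose 6.46-fold (2.69 ± 0.18), GBP5 5.77-fold (2.53 ± 0.24), GBP2 4.63-fold (2.21 ± 0.35), OASL at least 3.02-fold (2.03 ± 0.21) and EPSTI1 2.73-fold (1.45 ± 0.36, adjusted p = 0.00876). The EPSTI1 call ended without 1 h replicate 1 or 3 h replicate 2 (adjusted p up to 0.0761). IFIT1 and IFIT2 were among the rises, by at least 1.25-fold and at least 1.60-fold over 1 h arrays that were not well above background. The largest falls were those of IFI16, 3.88-fold (-1.96 ± 0.27; 3.54-fold with the dim array at the lowest signal), SAMD9, 3.64-fold (-1.86 ± 0.29), PSMB8, 3.41-fold (-1.77 ± 0.14), PSMB9, 2.55-fold (-1.35 ± 0.15), and SP110, 2.30-fold (-1.20 ± 0.21). Without 1 h replicate 1, the counts were 6 higher and 7 lower, and without 3 h replicate 2 there were 7 higher. With median scaling, 8 members were higher and 14 lower. This comparison and that of 3 h with control share their 3 h arrays.

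In BEAS-2B cells after 3 h of dust extract, 6 members rose and 1 fell of 50. The 7 calls stood against 5.5% of all features called, and by direction the background was 3.29% higher and 2.21% lower. With median scaling, 4 members were higher and 2 lower. ISG20 was again among the rises. It had levels of 11.08 and 10.73 at 3 h and 9.61 and 9.75 at 1 h, against 9.34 and 9.24 in control. Both 3 h arrays lay above the other 4 of this line, and ISG20 rose 3.06-fold (1.61 ± 0.18, adjusted p = 0.000756). Of the 7 calls, that of ISG20 held under every alternative run, with each single array left out included.

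The peptide transporter genes rose in BEAS-2B. TAP1 had levels of 11.22 and 11.28 at 3 h and 10.90 and 10.51 at 1 h, against 10.52 and 10.43 in control, and rose 1.71-fold (0.78 ± 0.15, adjusted p = 0.0144). TAP2 had levels of 7.89 and 7.88 at 3 h, against 7.24 and 7.35 in control, and rose 1.51-fold (0.59 ± 0.13, adjusted p = 0.0253). Neither group of 3 h arrays overlapped its control. Both calls ended without any 1 of the 4 BEAS-2B arrays compared (adjusted p up to 0.119 and 0.205). The TAP2 call also ended under median scaling and with the mean of its kept probes, of which the dimmer changed by 0.30 log2. Over the alternatives the estimates lay between 0.73 and 0.83 log2 for TAP1 and between 0.45 and 0.65 log2 for TAP2. PSMB8 changed by 0.11 ± 0.14 log2 and PSMB9 by 0.20 ± 0.15 log2 in these cells (adjusted p = 0.723 and 0.519). A dimmer kept probe of PSMB9 changed by 0.68 log2, so the value of PSMB9 in BEAS-2B depends on the probe. The other kept probes of PSMB8 changed by 0.10 and 0.33 log2.

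GBP3, a guanylate-binding protein, rose 2.24-fold (1.17 ± 0.29, adjusted p = 0.0462), with levels of 7.13 and 6.47 at 3 h, against 5.49 and 5.78 in control. Control replicate 1 was not well above background, and the fold was 2.06 with that array at the lowest such signal. RIGI, the sensor of viral RNA with a free triphosphate end, rose 1.92-fold (0.94 ± 0.24, adjusted p = 0.0495), with levels of 7.52 and 6.89 at 3 h, against 6.13 and 6.40 in control. IFIT5 rose 1.63-fold (0.70 ± 0.13, adjusted p = 0.012), or 1.57-fold with the dim control array at the lowest signal. The calls of GBP3 and RIGI each ended without any 1 of 9 arrays, the exceptions being both THP-1 arrays of 3 h and BEAS-2B 3 h replicate 2 (adjusted p up to 0.274 and 0.288). The IFIT5 call ended without either BEAS-2B control array (up to 0.14).

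IFIT1 was the member that fell in BEAS-2B at 3 h. It had levels of 8.30 and 7.64 at 3 h and 8.81 and 8.59 at 1 h, against 8.96 and 8.86 in control. It fell 1.92-fold (-0.94 ± 0.20, adjusted p = 0.0222). With replicate 1 or 2 of control, or replicate 2 of 3 h, left out it did not pass (adjusted p up to 0.172). Other IFIT genes differed from it: IFIT2 had levels of 8.67 and 7.38, against 8.42 and 8.37 in control, and IFIT3 8.67 and 7.67, against 8.23 and 8.09. The 3 h replicates of both lay on either side of the controls, and neither gene passed (adjusted p = 0.628 and 0.996).

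Several members missed the threshold in BEAS-2B at 3 h with estimates of similar size. GBP2 had levels of 9.81 and 8.78, against 8.12 and 8.12 in control (1.18 ± 0.35, adjusted p = 0.0826). GBP1, another guanylate-binding protein, had levels of 12.26 and 10.89, against 10.57 and 10.77 in control (0.90 ± 0.39, adjusted p = 0.221), so its replicates differed by more than the groups did. The change of GBP4 was 0.79 ± 0.22 log2 (adjusted p = 0.0637), that of IFI16 -0.91 ± 0.27 (adjusted p = 0.0854) and that of SAMD9 -0.82 ± 0.29 (adjusted p = 0.136). At an unadjusted p under 0.05 there were 17 members in all, and the share of all features at that threshold was not counted. Without replicate 1 of 3 h, the array on which most members were higher, 2 members rose, and without either control array 1 did. The fibroblast marker PDGFRB fell in this group by 1.36 ± 0.23 log2, and the summed raw signal of the 6 fibroblast markers was 858 and 560, against 890 and 997 in control, and COL1A1 and PDGFRB were the fibroblast markers above background. Its part in these results was not tested.

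At 1 h in BEAS-2B no member passed the test, against a background of 1.16% called, 1.09% higher and 0.0775% lower. By limma's unadjusted p under 0.05 there were 2, GBP1 with 0.98 ± 0.39 log2 (adjusted p = 0.645) and GBP3 with 0.85 ± 0.29 (adjusted p = 0.447). Levels of GBP1 were 11.50 and 11.81 at 1 h, against 10.57 and 10.77 in control. Between 1 h and 3 h, ISG20 rose 2.34-fold (1.22 ± 0.18, adjusted p = 0.00671), GBP4 2.16-fold (1.11 ± 0.22), TAP2 1.59-fold (0.67 ± 0.13) and IFIT5 1.52-fold (0.60 ± 0.13). These 4 rises were 8.0% of the members, against 2.69% of all features called, 1.41% higher and 1.29% lower. With median scaling, 2 members were higher and 1 lower. No member fell by limma's adjusted p, with 2 at an unadjusted p under 0.05, IFIT1 and IFI16. For GBP4, 1 h replicate 2 was not well above background, and the fold was 2.12 with it at the lowest signal. Under changes of processing with all arrays kept, the IFIT5 call ended in 5 of 8, the authors' value table among them. That of GBP4 ended in 2 of 8 and that of TAP2 in 2 of 9, while that of ISG20 held in all 9. None of the 4 calls held without every single array. That of ISG20 ended without 1 h replicate 1 (adjusted p = 0.0844), and the others had an adjusted p up to 0.191, 0.183 and 0.301.

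Whether the response differed between the lines was tested itself, as the change in BEAS-2B minus the change in THP-1, with the doses of 0.25% and 0.1%. At 3 h, 13 members were higher and 7 lower in this difference, 40.0% of the 50, against 26.6% of all features called, 14.9% higher and 11.7% lower. Under median scaling the members split into 16 higher and 4 lower. All 4 antigen processing genes tested were among the 13. Of these, PSMB8 differed by 1.95 ± 0.20 log2 (adjusted p = 8.48e-05) and PSMB9 by 1.61 ± 0.22 (adjusted p = 0.000505). TAP1 differed by 0.87 ± 0.21 and TAP2 by 0.80 ± 0.18 (adjusted p = 0.0125 and 0.00941). In THP-1 the proteasome subunits fell, and in BEAS-2B the transporter subunits rose.

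GBP4 differed by 1.81 ± 0.31 log2 between the lines at 3 h (adjusted p = 0.00195). Its levels were 6.77 and 6.70 in BEAS-2B at 3 h, against 5.66 and 6.24 in control, and 5.53 and 5.91 in THP-1 at 3 h, against 6.85 and 6.65 in control. TRIM21 differed by 1.81 ± 0.40 (adjusted p = 0.00782) and IFI16 by 1.68 ± 0.39 (adjusted p = 0.00984). SAMD9, RIGI, SP110, UBE2L6, IFIT5 and IFI35 were the other members higher in the difference. Lower in it were GBP5 by -2.80 ± 0.34 (adjusted p = 0.000267), GBP2 by -2.20 ± 0.50 (adjusted p = 0.00859), OASL by -2.13 ± 0.30 (adjusted p = 0.000578), EPSTI1 by -1.56 ± 0.51 (adjusted p = 0.0452) and IFIT1 by -1.47 ± 0.28 (adjusted p = 0.0038). GBP5 was not well above background on any BEAS-2B array, with levels of 4.52 to 4.80, so no fold can be given for that line. OASL and IFIT1 were not well above background on either THP-1 control array, so their differences rest on a level near background and are not exact. The same holds for IFIT5, not well above background on any THP-1 array, and for RIGI, on neither THP-1 array of 3 h. For GBP4 and IFI16, 1 of 2 THP-1 arrays of 3 h was dim, as was 1 of 2 BEAS-2B control arrays for GBP4. ISG20, which rose in both lines, also differed, by -0.97 ± 0.26 (adjusted p = 0.0185), as did IFI44. Without BEAS-2B control replicate 1 or 3 h replicate 2, 4 members were lower. The EPSTI1 call ended without any 1 of 8 arrays, which were all 4 controls, both BEAS-2B arrays of 1 h, and 3 h replicate 2 of each line (adjusted p up to 0.146). At 1 h, none of the 50 members differed, against a background of 0.569% (0.265% higher and 0.304% lower), and 1 member, GBP3, had an unadjusted p under 0.05 in limma (1.05 ± 0.41, adjusted p = 0.651).

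**Figure D3:**
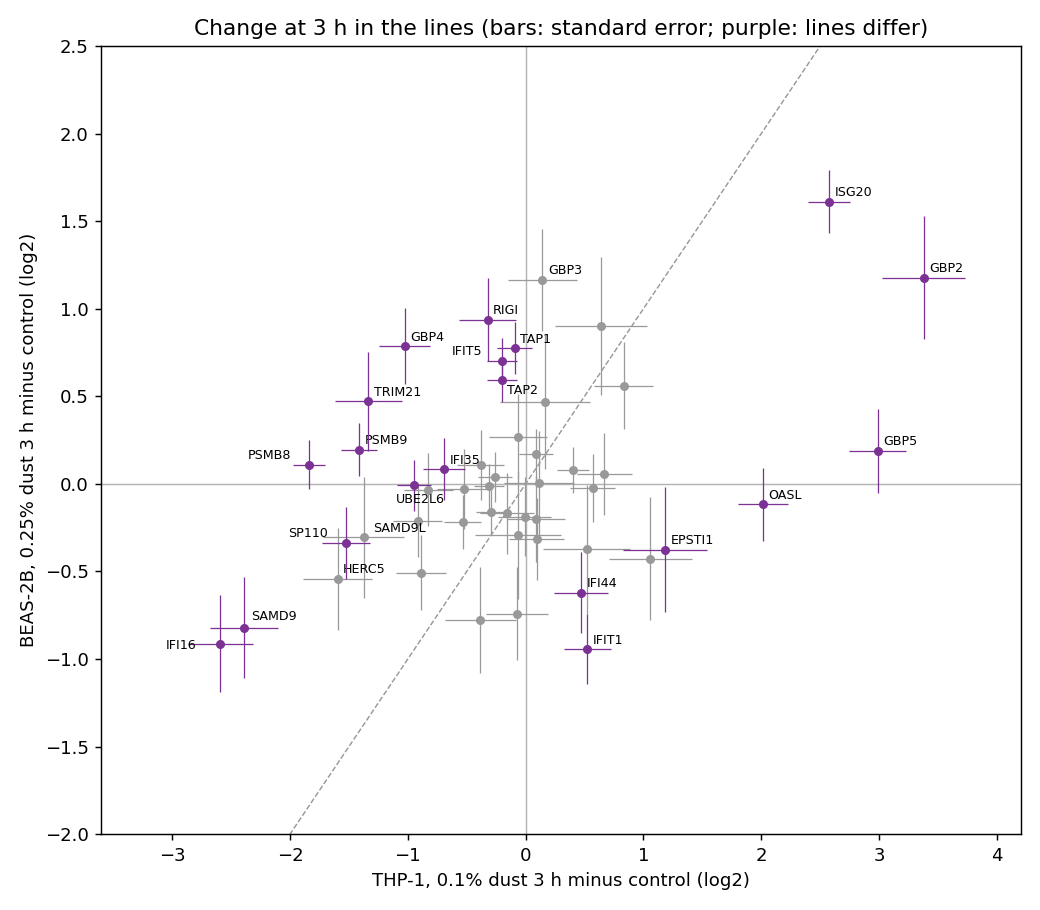
Change at 3 h against control in BEAS-2B (0.25% extract, vertical axis) and THP-1 (0.1% extract, horizontal axis) for the 50 tested members, in log2 with standard errors. Purple marks the 20 members whose change differed between the lines, and the dashed line marks equal change. ISG20 lies far up in both lines, GBP5 and OASL are raised on the THP-1 axis alone, and PSMB8 and PSMB9 lie left of 0 on the THP-1 axis and near 0 on that of BEAS-2B.

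Without dust, BEAS-2B cells had the higher level of most members. In BEAS-2B control minus THP-1 control, 26 members were higher and 12 lower, 76.0% of the 50, against 62.4% of all features. By direction the background was 32.2% and 30.1%, and the median difference was 0.70 log2 for the members and 0.01 for all features. GBP1 had levels of 10.57 and 10.77 in BEAS-2B, against 5.27 and 4.93 in THP-1, where neither array was well above background. It was at least 31.8-fold higher (5.57 ± 0.39, adjusted p = 5.46e-07). IFI27 was 12.5-fold higher (3.64 ± 0.24), IFIT1 at least 9.39-fold (3.50 ± 0.20), EPSTI1 9.38-fold (3.23 ± 0.36) and IFITM1, which blocks viral entry, 7.31-fold (2.87 ± 0.22). All 4 IFIT genes and all 4 tested genes of ISG15 conjugation were higher in BEAS-2B, although IFIT5 was above background there on 1 array only.

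Lower in BEAS-2B control were MX2, which restricts retroviruses at the nuclear pore, 4.77-fold (-2.25 ± 0.23), and SAMD9L, 3.63-fold (-1.86 ± 0.34). XAF1, an antagonist of apoptosis inhibitors, was 2.41-fold lower (-1.27 ± 0.20) and BST2, the tether that holds budding virus, 2.31-fold (-1.21 ± 0.13). GBP5 was lower at least 1.93-fold (-2.02 ± 0.24), with levels of 6.50 and 6.69 in THP-1. All 10 members given here kept their call under every alternative that could be run, with adjusted p up to 0.00819. The order of these differences does not rank the genes by abundance, since levels of different probes cannot be compared.

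**Figure D4:**
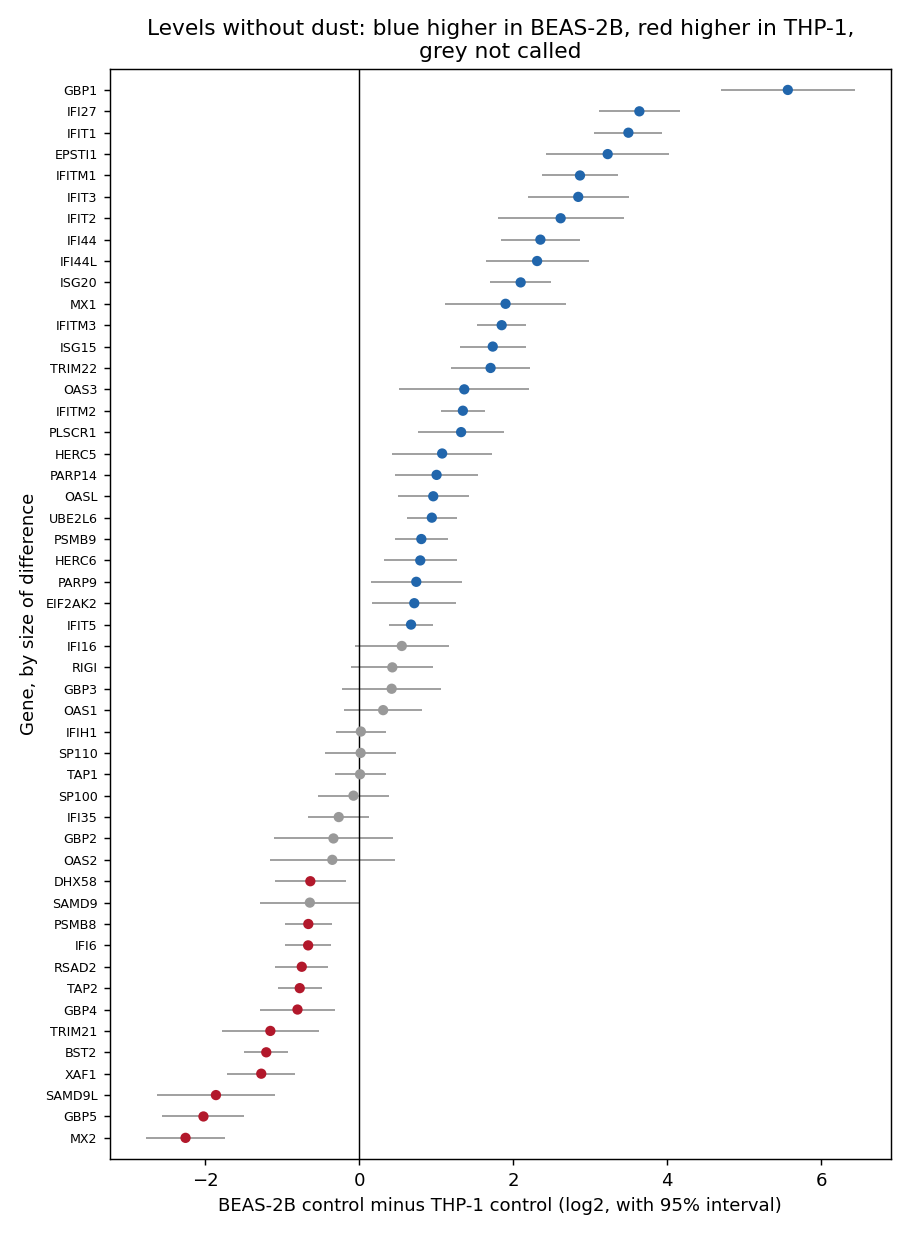
Difference of level between BEAS-2B control and THP-1 control for each of the 50 tested members, in log2 with 95% intervals. Blue members were higher in BEAS-2B (26), red members higher in THP-1 (12) and grey members not called (12). GBP1 lies farthest to the right and MX2 farthest to the left.

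The genes around these members were read from a list of 48 genes of interferon signalling, of which 32 were tested. Probes of the interferons IFNA1, IFNA2, IFNB1, IFNG, IFNK, IFNL1, IFNL2 and IFNL3 were well above background on 0 of 12 arrays, and IFNE, an epithelial type I interferon, on some BEAS-2B arrays alone. In THP-1 at 3 h, 8 of the 32 rose and 7 fell, a share of 46.9% that was near the 45.7% of all features called. SOCS3, a feedback inhibitor of JAK kinases, rose at least 10.6-fold (4.37 ± 0.37), CXCL10, a chemokine for T cells, at least 9.61-fold (3.47 ± 0.43), TICAM1, the adaptor of TLR3 and TLR4 towards interferon, 6.28-fold (2.65 ± 0.19), and IFNGR2, a receptor subunit for interferon gamma, 4.73-fold (2.24 ± 0.29). CCL5 rose 2.42-fold, IRF1 2.16-fold (adjusted p = 0.0271) and IRF7, the master factor of type I interferon genes, 1.92-fold (adjusted p = 0.00117). The falls included IRF5, 4.59-fold (-2.20 ± 0.20), STING1, the adaptor of cytosolic DNA sensing, 3.83-fold (-1.94 ± 0.20), MYD88, an adaptor of Toll-like receptors, 2.41-fold (-1.27 ± 0.18), JAK2, 2.13-fold, TLR4, 1.68-fold with 1 dim array of 3 h, and IRF3, 1.47-fold.

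At 1 h in THP-1, 3 of the 32 signalling genes rose and none fell, although 7 had an unadjusted p under 0.05 in limma, 1 of them lower. The 3 calls were 9.38% of the list, against 1.64% of all features (1.26% higher and 0.381% lower). They were CXCL10, at least 10.8-fold (3.64 ± 0.43, adjusted p = 0.00123), SOCS3, at least 2.55-fold, and TICAM1, 2.90-fold. CXCL10 had levels of 8.60 and 9.65 at 1 h, against 5.32 and 5.63 in control, at a time when no member on the list of 53 was called. In BEAS-2B at 3 h, 6 rose and none fell, with 4 lower at limma's unadjusted p under 0.05. The calls were 18.75% of the list, against 5.5% of all features (3.29% higher and 2.21% lower). The rises were CXCL10 5.44-fold (2.44 ± 0.43, adjusted p = 0.00954), CCL5 4.01-fold, the kinase IKBKE 2.96-fold, SOCS3 at least 2.10-fold, TICAM1 1.99-fold and IFNAR2, a subunit of the type I interferon receptor, 1.88-fold. At 1 h in BEAS-2B 3 rose, against 1.16% of all features called, and these were IRF1, 5.49-fold (2.46 ± 0.36, adjusted p = 0.00706), SOCS3, at least 3.64-fold, and TICAM1, 2.59-fold. IRF1 had levels of 12.21 and 10.86 at 3 h and 13.18 and 13.11 at 1 h, against 10.70 and 10.67 in control, so that it was highest at 1 h. IRF9, a subunit of the factor that binds the ISRE, passed in no dust comparison with control, with estimates of 0.18 and -0.30 in THP-1 and -0.62 and -0.08 in BEAS-2B at 3 h and 1 h.

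The promoter letters were set beside the calls, as a description only. Of the 10 members that rose in THP-1 at 3 h, 7 had a promoter in the table and all 7 of these held the ISRE core. The 3 others were GBP2, GBP5 and OASL, among the 4 largest rises, and 6 of the 7 were the members whose calls ended under median scaling. Of the 15 that fell, 14 had a promoter and 6 held it, namely GBP4, HERC5, PSMB8, RSAD2, SAMD9 and TRIM21. Among the 25 members not called, 17 of 20 held it. Of the 6 members that rose in BEAS-2B, 5 held it, and so did IFIT1, the member that fell. The NF-kB type letters were found in RIGI and TAP1 of these 6.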

How the data were processed

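RNA of 12 samples was hybridised to 12 arrays of 1 Illumina bead chip. Raw probe intensities were exported with GenomeStudio 2011.1, per the submitters' processing notes, and the deposited intensity values were neither background-subtracted nor scaled, as read from the values. The deposited detection p-values compare each probe with negative controls, per the file headers, and their steps imply 770 of these. The deposited count of beads per probe was used only to judge precision (median 21 beads). The authors' own value table, which behaves as quantile-normalized raw signal (within 0.821% of the mean sorted signal), served as an alternative.

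Here the raw intensities were background-corrected and quantile-normalized on the log2 scale with neqc of limma 3.58.1 in R 4.3.3 (offset 16), using the deposited detection p-values in place of control probes. Of 47320 probes, 19045 were kept, those that both arrays of some group detected (detection p under 0.01). Of all probes, 30112 had 1 gene symbol in the platform annotation, which can be old, 8 had several and 17200 had none. After 1 probe per gene was chosen, 11412 genes and 4067 unnamed probes were tested, 15479 in all. A limma fit of 6 group means shared 1 estimate of spread per feature (6 residual and 4.30 prior degrees of freedom), and p-values were adjusted by Benjamini-Hochberg over all 15479, with calls at an adjusted p under 0.05. Shares of all features were counted at the adjusted p alone, so counts at an unadjusted p have no such share beside them. The number of arrays limits the precision. All arrays shared 1 chip, with THP-1 and BEAS-2B in separate blocks of positions, so position and line cannot be told apart. The fit was tested on simulated data.

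The members and gene lists were chosen with earlier results of these data known. Members given with full statistics were, in each comparison of dust with control, up to 12 largest rises and 8 largest falls among called members whose arrays of both groups did not overlap, and up to 5 in each direction elsewhere. Signalling genes were named by smallest p, up to 6 in each direction, together with the interferons and factors followed throughout. Members with values but no call were chosen by role after their values were seen. Alternatives changed the background correction, scaling, value table, filter, choice of probe, prior and replicate block, or left out each array in turn. A longer exposure named in the design text was not analysed here.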

Additional observations from a re-analysis of the deposited data

Results flagged for a closer look

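The response to dust extract at 3 h differed between the lines, by limma's test of the change in BEAS-2B minus the change in THP-1 itself, for 13 members that were higher and 7 that were lower in this difference. The lines also received different doses. The members higher in it were led by PSMB8 (1.95 log2), GBP4 (1.81), TRIM21 (1.81), IFI16 (1.68) and PSMB9 (1.61). Of these, PSMB8, PSMB9, IFI16, TRIM21 and GBP4 all fell in THP-1 and none was called in BEAS-2B against control. The members lower in it were led by GBP5 (-2.80 log2), GBP2 (-2.20), OASL (-2.13), EPSTI1 (-1.56) and IFIT1 (-1.47). GBP5 was well above background on 0 of the 6 BEAS-2B arrays, IFIT1 on 1 of the 6 THP-1 arrays and OASL on 2 of them, so these differences are not exact. For GBP4, 1 of 2 arrays was dim in BEAS-2B control and in THP-1 at 3 h. For IFI16, 1 of 2 arrays was dim in THP-1 at 3 h, so the differences of GBP4 and IFI16 are not exact either. No group was large enough for a search for single deviating arrays.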

How the results depend on the processing

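Each array was left out in turn. In THP-1 at 3 h against control this gave 5 to 11 members higher and 13 to 16 lower. The count of higher members was 6 without either control array and 5 without 3 h replicate 2. In BEAS-2B at 3 h there were 1 to 6 higher and 0 to 4 lower, with 4 lower without either THP-1 array of 3 h, and 0 without either BEAS-2B control array or 3 h replicate 2. Between 1 h and 3 h there were 6 to 14 higher and 7 to 11 lower in THP-1, and 0 to 4 higher and 0 to 1 lower in BEAS-2B. The controls gave 21 to 27 higher and 10 to 13 lower, and the difference between the lines at 3 h gave 10 to 15 higher and 4 to 8 lower. At 1 h the counts were 0 in all of these. Among named members, 628 results kept their call and 80 lost it when an array was left out, and 450 kept it and 37 lost it under the other settings. None reversed.

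Median scaling gave 4 higher members in THP-1 at 3 h, 2 lower in BEAS-2B at 3 h, 2 higher and 1 lower between 1 h and 3 h in BEAS-2B, and 4 lower in the difference between the lines. Each line on its own gave 6 higher in THP-1 at 3 h, 2 lower in BEAS-2B at 3 h and 2 higher between the times in BEAS-2B. Without the detection filter 6 members were higher in THP-1 at 3 h. Without background correction, and likewise with the authors' value table, 2 were lower in BEAS-2B at 3 h. A filter that asked for detection on all 12 arrays tests fewer genes, and gave 9 lower in THP-1 at 3 h, 3 higher and 0 lower in BEAS-2B at 3 h, 7 higher and 7 lower between the times in THP-1, 2 higher between the times in BEAS-2B, 15 higher and 6 lower between controls, and 4 lower in the difference between the lines. The cause of the other shifts was not tested. With the replicate block, 3 members were lower in BEAS-2B at 3 h, and IFI27 in THP-1 and GBP3 in BEAS-2B lost their calls. The labels give the arrays only a number, and the deviations of same-numbered arrays correlated at 0.24 to 0.34 in THP-1 and at -0.11 to 0.20 in BEAS-2B, and with only 2 numbers per group they were not taken as pairs.

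Over all features, THP-1 at 3 h had 2961 higher and 4107 lower, against 1648 and 6047 under median scaling and 1950 and 2661 with detection on all arrays. BEAS-2B at 3 h had 510 and 342, against 478 and 619 and 272 and 185 under the same settings, and 174 and 52 without control replicate 1 or 200 and 73 without control replicate 2. At 1 h THP-1 had 195 and 59, against 135 and 11 with each line on its own. BEAS-2B at 1 h had 168 and 12, against 98 and 7. Between the times, THP-1 had 2605 and 3510, against 1482 and 4865 under median scaling, and BEAS-2B had 218 and 199, against 199 and 326, and 47 and 29 without 1 h replicate 1 or 63 and 44 without 1 h replicate 2. The controls had 4989 and 4665, against 2937 and 2864 with detection on all arrays. The difference between the lines had 2301 and 1810 at 3 h, against 3448 and 1179 under median scaling, and 41 and 47 at 1 h, against 11 and 15 with detection on all arrays. Members near background, such as IFIT3 in THP-1 and GBP5 in BEAS-2B, have no fold at this signal.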
